A study of Arabidopsis thaliana with 2 samples.

Results

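AZI1 (AT4G12470), EARLI1 (AT4G12480) and the neighbouring genes AT4G12490, AT4G12500, AT4G12510 and AT4G12520 form a tandem row of hybrid proline-rich genes on chromosome 4 of Arabidopsis thaliana. These 6 genes were taken by their identifiers from the 33557 genes listed in each library, and all 6 were found. They were measured by RNA-seq in whole 10-day-old seedlings of Col0 background that carry the arp6-1 mutation, grown at 17 °C in long days. At 1 h after dawn a shift experiment began, and these seedlings, collected after 15 min, were those held at 17 °C. They make up 1 group, sequenced as replicate 1 and replicate 2, and nothing in the labels says that these came from separate cultures. All seedlings carry arp6-1, so that no wild type, warmth or later time was compared here, and the differences below are between the duplicates. The row was selected on the counts and TPM of these same libraries, in which AZI1 had one of the largest differences of all genes, and its differences are therefore given as descriptions, without tests.

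Hybrid proline-rich proteins are small secreted or membrane-associated plant proteins in which a proline-rich stretch is followed by a cysteine-rich domain related to that of lipid transfer proteins. AZI1, named for its induction by azelaic acid, is known to be needed for systemic acquired resistance, in which a local infection primes distant leaves, and is known to be a target of the kinase MPK3. EARLI1 was found as a gene induced by aluminium and is known to respond to cold and to vernalization. The other 4 genes carry no symbol in the annotation used here and are described there as members of the bifunctional inhibitor and lipid transfer superfamily.

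The gene counts summed to 20249142 in replicate 1 and to 12410991 in replicate 2, so that values of replicate 2 are the less precise. ARP6, the mutated gene, had 7 counts in replicate 1 and 7 in replicate 2, and 0.339 and 0.560 TPM; its span overlaps another gene, which leaves these counts uncertain. Both shoot and root transcripts were present. The 7 genes listed for photosynthetic shoot tissue summed to 16551 TPM in replicate 1 and 17148 TPM in replicate 2, and none of 12 root markers was at 0 counts in either library. TPM is a transcript abundance corrected for transcript length and library size, and the levels below are the authors' deposited TPM.

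The 6 genes lie on the minus strand between 7401109 and 7421738 of chromosome 4 (TAIR10, the build of the files), a stretch of 20630 bases, with gaps of 2308 to 4197 bases between them. AZI1 runs from 7401109 to 7401907, EARLI1 from 7406105 to 7406937, AT4G12490 from 7409621 to 7410406, AT4G12500 from 7414150 to 7414927, AT4G12510 from 7417236 to 7417803 and AT4G12520 from 7421056 to 7421738. Each has a single exon and 1 annotated transcript in TAIR10.1, and none overlaps another gene in the files. TAIR10.1 also lists AT4G12485 and AT4G12495 on the opposite strand, overlapping EARLI1 and AT4G12490. Whether reads were counted by strand is not given in the sources used here, so that reads from such a partner cannot be told apart.

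By sequence the row falls into 4 related genes and a near-identical pair. Among AZI1, EARLI1, AT4G12490 and AT4G12500 the aligned coding sequences had 78.4% to 90.5% identical positions, with AZI1 and EARLI1 at 84.7% and AT4G12490 and AT4G12500 at 90.5%. AT4G12510 and AT4G12520 had 99.5%, and shared 49.1% to 63.1% with the first 4. The coding lengths were 486 bases for AZI1, 507 for EARLI1, 549 for AT4G12490, 534 for AT4G12500 and 390 for each gene of the last pair.

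How far reads can be assigned to single genes was computed from the genome. Of the windows of 100 bases, the read length, in the transcripts of AZI1 (766 windows) and EARLI1 (831 windows), 0 occurred a second time in the genome and 0 came within 2 mismatches of another gene of the row. AT4G12490 and AT4G12500 had 0 windows found elsewhere and 16 each within 2 mismatches of the other. In AT4G12510 342 of 707 windows (48.4%) and in AT4G12520 432 of 779 windows (55.5%) occurred elsewhere, in the other gene of the pair or, for 90 of the windows, in the bases around the start of AT4G12510. Full-length reads of AZI1 and EARLI1 thus had no second exact match in the genome, which leaves the overlap of EARLI1 with AT4G12485 unresolved. The split between AT4G12510 and AT4G12520 depends on how shared reads were counted, which is not given in the sources used here. The end of both coding sequences is shown because it holds the only differences between them; coding bases 347 to 390 are given 5′ to 3′ from TAIR10.1, with the differing bases in capitals, at chr4:7417414-7417457 and chr4:7421279-7421322, minus strand.
AT4G12510: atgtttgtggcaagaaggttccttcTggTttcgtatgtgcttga
AT4G12520: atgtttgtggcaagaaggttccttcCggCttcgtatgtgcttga
The substitutions, T372C and T375C counted from the first coding base and read from AT4G12510 to AT4G12520, both fall on the last base of a codon and are synonymous. The first 371 coding bases of the pair are identical.

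AZI1 was abundant in replicate 1 and scarce in replicate 2. It had 734 counts in replicate 1 and 25 in replicate 2, with exact 95% Poisson intervals of 682 to 789 and 16.2 to 36.9. Its level was 92.2 TPM in replicate 1 and 5.13 TPM in replicate 2, a mean of 48.7 ± 61.5 TPM (SD, n = 2), and the libraries lie far to either side of it. AZI1 stood above 89.1% of the 20568 genes with at least 20 counts over both libraries in replicate 1, and above 26.1% of them in replicate 2. Scaled for library size, its count was 16.9-fold higher in replicate 1 (95% counting interval 11.3 to 26.2). Intervals on counts cover counting error only.

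EARLI1 differed in the same direction by less. It had 532 counts in replicate 1 and 48 in replicate 2, and 58.2 and 8.70 TPM. Its scaled count was 6.37-fold higher in replicate 1 (counting interval 4.73 to 8.75). AZI1 had 1.58 times the TPM of EARLI1 in replicate 1 and 0.590 times in replicate 2, so that the order of the pair was not the same in both libraries.

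AT4G12490 and AT4G12500, which lie between EARLI1 and the last pair, were near the lower end of detection. AT4G12490 had 23 counts in replicate 1 and 11 in replicate 2, and 2.74 and 2.15 TPM. The ratio of its scaled counts was 1.20, with a counting interval of 0.563 to 2.73 that includes no difference. AT4G12500 had 8 counts in replicate 1 and 1 in replicate 2, a ratio of 4.60 with a counting interval of 0.616 to 204, and was listed at 0.883 and 0 TPM. In neither gene did a difference stand beyond counting error. The counting interval of AT4G12490 ends below that of EARLI1 (4.73 to 8.75), whereas that of AT4G12500 spans it.

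AT4G12510 and AT4G12520 were well transcribed in both libraries. AT4G12520 had 389 counts in replicate 1 and 181 in replicate 2, and 64.9 and 50.9 TPM, a 1.23-fold higher scaled count in replicate 1 (counting interval 1.03 to 1.48). AT4G12510 had 183 and 53 counts and 35.8 and 17.6 TPM, 1.98-fold higher in replicate 1 (counting interval 1.45 to 2.75). Their sum does not depend on how shared reads were split within the pair. It does depend on whether such reads were counted, dropped or counted for both genes, which is not given in the sources used here. Together they had 572 counts in replicate 1 and 234 in replicate 2, a 1.40-fold higher scaled count in replicate 1 (counting interval 1.20 to 1.64).

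**Figure D1:**
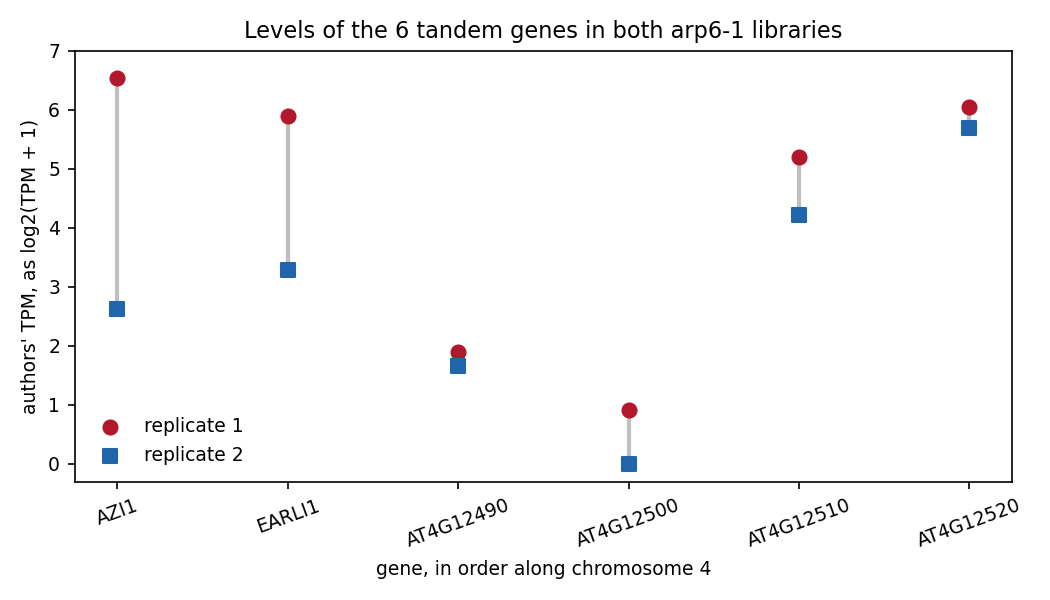
Level of each gene in replicate 1 (red circles) and replicate 2 (blue squares), as log2(TPM + 1) of the authors' TPM, with genes in chromosomal order and a grey bar joining the libraries. AZI1 had 92.2 TPM in replicate 1 and 5.13 TPM in replicate 2, whereas AT4G12520 had 64.9 and 50.9 TPM.

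The make-up of the row thus differed between the libraries. The 6 genes summed to 254.8 TPM in replicate 1 and 84.4 TPM in replicate 2, a mean of 169.6 ± 120.5 TPM (SD, n = 2). AZI1 made up 36.2% of this sum in replicate 1 and 6.08% in replicate 2, and AZI1 with EARLI1 59.0% and 16.4%. AT4G12520 made up 25.5% and 60.3%. In replicate 1 the order of levels was AZI1, AT4G12520, EARLI1, AT4G12510, AT4G12490 and AT4G12500. In replicate 2 it was AT4G12520, AT4G12510, EARLI1, AZI1, AT4G12490 and AT4G12500, with AT4G12520 at 9.91 times the TPM of AZI1. Over the libraries AT4G12520 averaged 57.9 ± 9.93 TPM, AZI1 48.7 ± 61.5 TPM, EARLI1 33.5 ± 35.0 TPM, AT4G12510 26.7 ± 12.9 TPM, AT4G12490 2.45 ± 0.417 TPM and AT4G12500 0.442 ± 0.624 TPM (SD, n = 2). By these spreads AZI1 and EARLI1 did not separate from each other or from any other gene of the row, while AT4G12520, AT4G12510, AT4G12490 and AT4G12500 separated in that order. An SD of 2 values is a weak measure of spread. The Poisson intervals of the AT4G12490 and AT4G12500 counts overlapped, at 14.6 to 34.5 and 3.45 to 15.8 in replicate 1. In replicate 2 they were 5.49 to 19.7 and 0.0253 to 5.57, so that the order of these genes is uncertain. The split of shared reads bears on AT4G12520 and AT4G12510. With TPM computed from the counts and TAIR10.1 exon lengths, EARLI1 (47.7 TPM) came before AT4G12520 (36.9 TPM) in replicate 1, and the order in replicate 2 was the same. By the mean of this computed TPM over the libraries, AZI1 (37.3 TPM) came before AT4G12520 (32.8 TPM), so that which gene averaged highest depends on the TPM used.

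Read against all genes, 2 of the 5 genes of the row with at least 20 counts over both libraries, AZI1 and EARLI1, were at least 2-fold higher in replicate 1, and 0 were at least 2-fold lower. Of all 20568 genes with such counts, 9.99% were at least 2-fold higher in replicate 1 and 9.51% at least 2-fold lower. AZI1 and EARLI1 were also at least 4-fold higher, as were 1.83% of all genes, and 0 genes of the row were at least 4-fold lower, against 2.91% of all genes. AZI1 was chosen by this contrast, and nothing is read from these counts. On the log2 scale, with a prior count of 2 that shrinks the differences of low counts, replicate 1 exceeded replicate 2 by 4.00 for AZI1, 2.63 for EARLI1, 0.97 for AT4G12510, 0.30 for AT4G12520 and 0.24 for AT4G12490. Their median was 0.97, and that of all genes was 0.0059. AZI1 ranked 5th and EARLI1 133rd of all genes by this difference, and AT4G12510 2164th. AT4G12510 lay just under the 2-fold limit and passed it with scaling by total counts (1.06 on the log2 scale). AT4G12500, with 9 counts in all, did not reach the minimum.

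**Figure D2:**
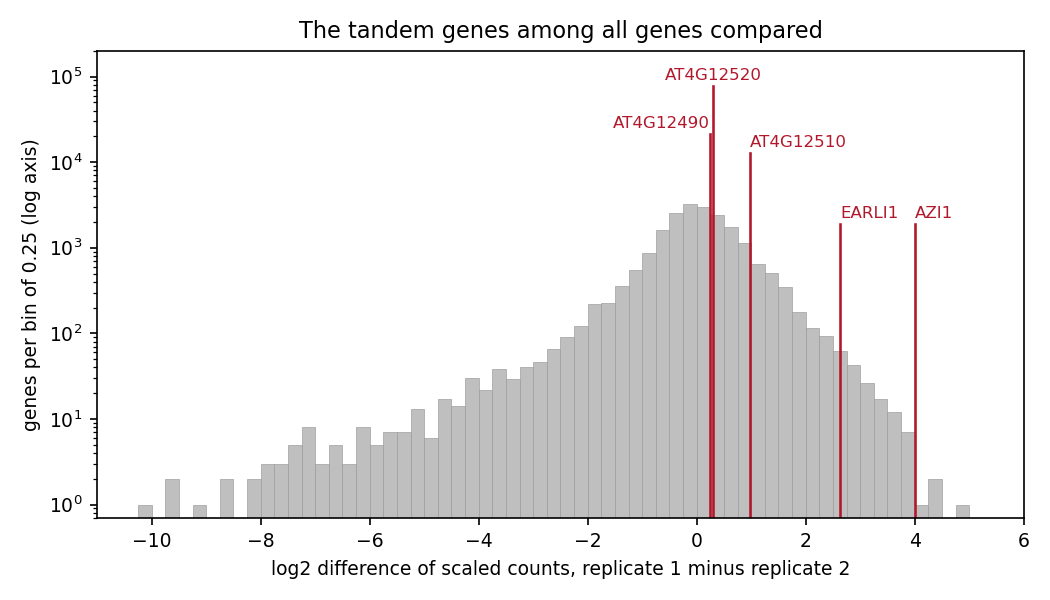
Number of genes (log axis) by log2 difference of scaled counts, replicate 1 minus replicate 2, for the 20568 genes with at least 20 counts over both libraries, with 5 genes of the row marked by red lines. AZI1 at 4.00 and EARLI1 at 2.63 lie in the right tail, and AT4G12490 (0.24) and AT4G12520 (0.30) near the centre.

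The bases before the start of AZI1 and EARLI1 are shown because these are the genes of the row past 2-fold. The sequences are the 250 bases upstream of the annotated transcript in TAIR10.1, 5′ to 3′ on the minus strand, at chr4:7401952-7402201 and chr4:7406995-7407244. Capitals mark runs of at least 10 bases that occur in both.
AZI1: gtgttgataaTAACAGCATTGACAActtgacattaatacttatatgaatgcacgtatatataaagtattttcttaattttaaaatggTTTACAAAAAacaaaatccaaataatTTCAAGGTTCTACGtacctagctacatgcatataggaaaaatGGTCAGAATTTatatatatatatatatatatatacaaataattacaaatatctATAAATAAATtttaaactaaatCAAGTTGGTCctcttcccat
EARLI1: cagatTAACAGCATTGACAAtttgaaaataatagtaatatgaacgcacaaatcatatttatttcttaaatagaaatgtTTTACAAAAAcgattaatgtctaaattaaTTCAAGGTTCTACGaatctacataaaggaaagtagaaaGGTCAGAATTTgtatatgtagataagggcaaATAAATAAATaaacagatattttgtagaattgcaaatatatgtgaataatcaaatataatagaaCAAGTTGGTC
The 6 shared runs cover 70 of 250 bases (28%) in each, and the longest has 15 bases. In the same window AT4G12510 and AT4G12520 shared 157 bases (62.8%) in such runs, with a longest run of 66 bases, and AT4G12490 and AT4G12500 shared 32 bases (12.8%). Aligned from end to end, gaps counted, AZI1 and EARLI1 had 64.5% identical positions and AT4G12510 and AT4G12520 46.2%. The windows of the latter pair are offset. Their shared stretch holds the letters TATAAA at 113 bases before the start of AT4G12510 and at 23 before that of AT4G12520. Their alignment took 340 columns, 157 of them identical, so that gaps from the offset lower the 46.2%. It does not show that this pair is less alike upstream than AZI1 and EARLI1.

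Known motifs were searched on both strands of these windows. The G-box CACGTG, the abscisic acid response elements ACGTGTC or ACGTGGC and the C-repeat core CCGAC had a match in 0 of the 6 windows, against 6.49%, 6.39% and 12.0% of 27443 promoter windows of the same length. The W-box TTGACC or TTGACT and the TGA-factor core TGACG were each found in 1 of the 6, AT4G12500, against 28.4% and 18.6% of all windows. The evening element AAAATATCT, a motif of clock-regulated genes, was found in EARLI1 and AT4G12500, against 2.36% of all windows. Both matches lie in a longer stretch that these windows share, so that they cannot be counted as separate against that rate. The TATA box TATAAA was found in 5 of the 6 windows, all but EARLI1, against 47.3% of all windows. The matches of AT4G12510 and AT4G12520 lie in their shared stretch, so that these 5 too cannot be counted as separate. A match is a description of these letters, not a site.

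Along the chromosome, all 6 genes of the row had a higher scaled count in replicate 1, by unlike amounts. For AT4G12490 and AT4G12500 the counting interval included no difference. The flanking genes went both ways. On the side of AZI1, the oxysterol-binding protein gene ORP2B had 654 counts in replicate 1 and 557 in replicate 2, a ratio of scaled counts of 0.675 (counting interval 0.602 to 0.757), and the adenine phosphoribosyl transferase gene APT4 had 36 and 16 counts (ratio 1.29, 0.699 to 2.50). AT4G12450 had 9 and 9 counts, and AT4G12426 0 and 0. TPPF, a trehalose-phosphate phosphatase gene, was listed with 0 counts in both libraries beside 4.22 and 20.6 TPM, so that its counts cannot be read.

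On the other side, related genes were higher in replicate 1. AT4G12545, of the same superfamily, had 85 counts in replicate 1 and 10 in replicate 2 (4.88-fold, counting interval 2.53 to 10.6). AIR1 (AT4G12550), a gene of the same family found in auxin-treated root cultures, had 120 and 21 counts (3.28-fold, 2.05 to 5.50). AT4G12540, an uncharacterized gene, had 80 and 17 counts (2.70-fold, 1.59 to 4.87), and AT4G12530 had 1 and 0. CPR1, the next gene and an F-box repressor of defence, was lower in replicate 1, with 730 and 762 counts (ratio 0.550, 0.497 to 0.610). The ratios of AT4G12545 and AIR1 were above those of AT4G12490, AT4G12510 and AT4G12520, although their counting intervals overlap those of AT4G12490 and AT4G12510, and the 4.60 of AT4G12500, from 9 counts in all, lay between the ratios of AT4G12545 and AIR1.

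**Figure D3:**
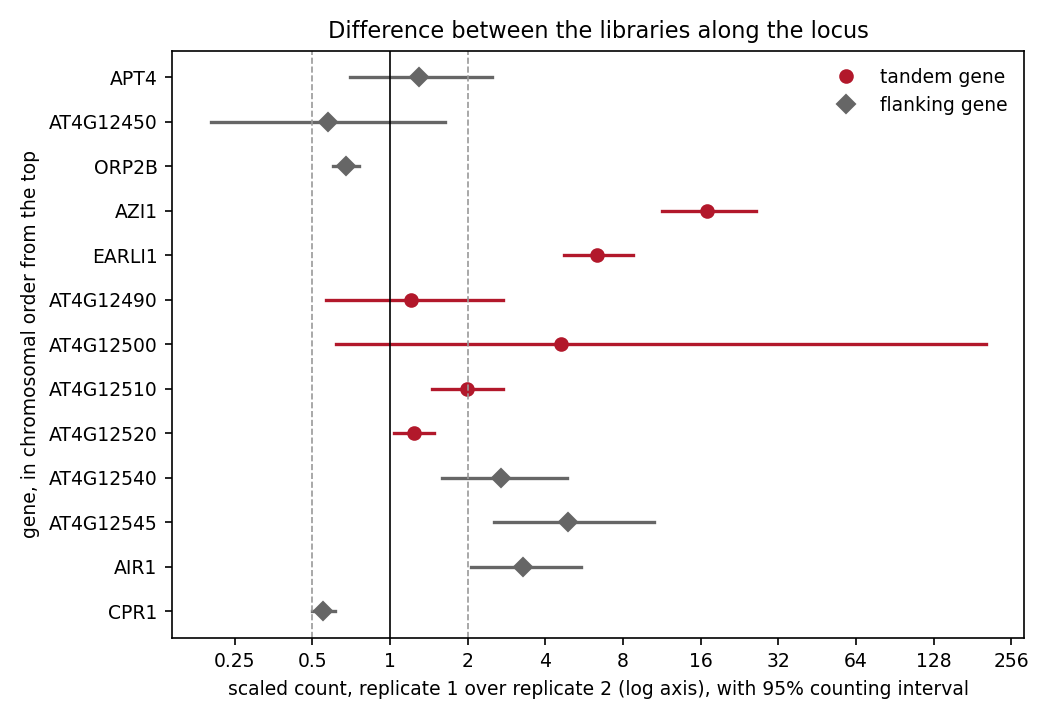
Ratio of scaled counts, replicate 1 over replicate 2 (log axis), with 95% counting intervals, for the genes of the row (red circles) and flanking genes with counts in both libraries (grey diamonds), in chromosomal order from the top. AZI1 (16.9) and EARLI1 (6.37) lie to the right of the dashed 2-fold line, ORP2B (0.675) and CPR1 (0.550) to the left of 1.

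Among other hybrid proline-rich genes more were higher than lower in replicate 1. Of 19 listed genes, AT4G12545 and AIR1 among them, all 19 reached 20 counts, with a median log2 difference of 0.91. At least 2-fold higher in replicate 1 were 8 (42.1%), and 1 (5.26%) was at least 2-fold lower, against 9.99% and 9.51% of all genes. Away from the locus 6 of 17 were at least 2-fold higher. AT2G45180 had 1328 TPM in replicate 1 and 501 TPM in replicate 2, and AT4G22460 14.2 and 3.81 TPM. The gene at least 2-fold lower was the extensin-like ELP, with 170 and 326 TPM, and AT4G22470 (1.01 and 1.31 TPM) and AT4G22505 (49.2 and 52.5 TPM) were lower within 2-fold. The largest ratio of scaled counts in this list was the 4.88 of AT4G12545 (counting interval 2.53 to 10.6).

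The wider family went both ways. The bifunctional inhibitor and lipid transfer superfamily, listed without the row, held 101 genes, 15 of them also among the hybrid proline-rich genes. Of the 51 that reached 20 counts, 9 (17.6%) were at least 2-fold higher in replicate 1, against 9.99% of all genes. At least 2-fold lower were 12 (23.5%), against 9.51% of all genes, and the median log2 difference of the 51 was 0.17. Type 1 lipid transfer genes, which encode small secreted proteins that bind lipids in the cell wall, lay more often on the other side. Of 9 genes 0 were at least 2-fold higher in replicate 1 and 5 at least 2-fold lower, with a median of -1.22. Within 2-fold, AT5G01870 (1.85-fold) and AT2G15050 (1.23-fold) had a higher scaled count in replicate 1. LTP3 had 7.28 TPM in replicate 1 and 875 TPM in replicate 2. LTP4 had 0.237 TPM in replicate 1, from 2 counts, and 569 TPM in replicate 2. The 4 GPI-anchored lipid transfer genes with enough counts held 0 higher and 1 lower, with a median of -0.23.

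**Figure D4:**
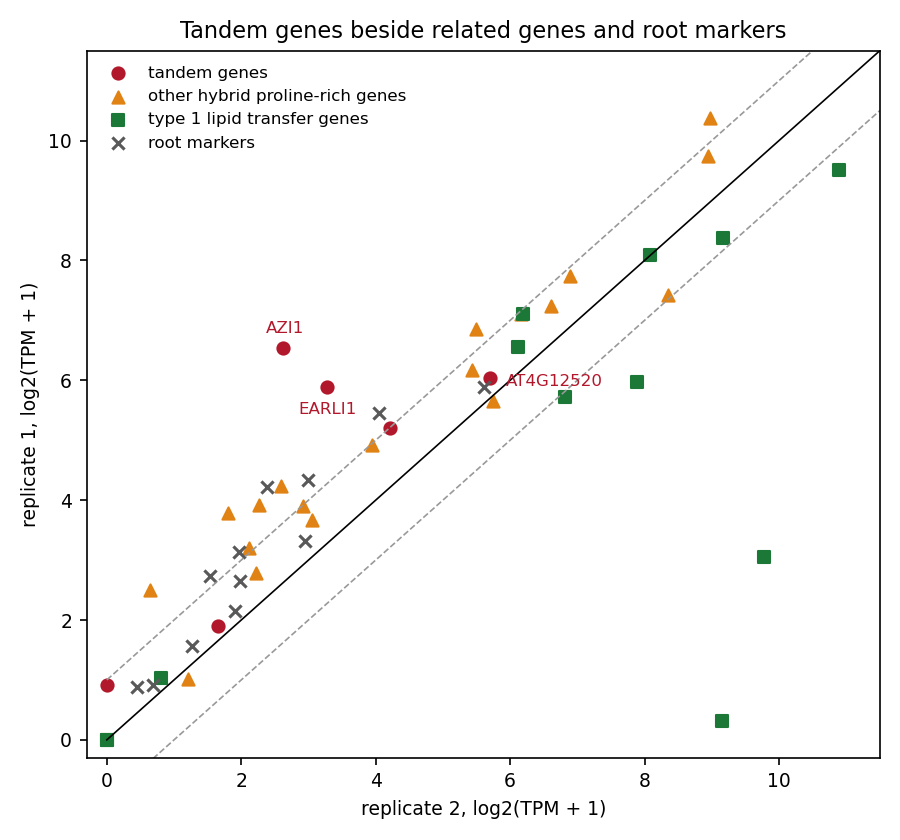
Level in replicate 1 against replicate 2, both as log2(TPM + 1), for the 6 tandem genes, 19 other hybrid proline-rich genes, 12 type 1 lipid transfer genes and 12 root markers; the line marks equal levels and the dashed lines a 2-fold difference in TPM + 1. AZI1 and EARLI1 lie farthest above the line, and LTP3 and LTP4 farthest below it.

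Genes of systemic acquired resistance, the process in which AZI1 acts, were found on both sides. Of 19 listed genes 2 (10.5%) were at least 2-fold higher in replicate 1 and 4 (21.1%) lower, against 9.99% and 9.51% of all genes, with a median log2 difference of -0.14. The share that was higher is thus near that of all genes. Higher were ALD1, which makes the precursor of pipecolic acid (137 counts in replicate 1 and 15 in replicate 2), and the legume lectin-like gene AT5G03350 (192 and 53.2 TPM). Lower in replicate 1 were the salicylic acid-induced genes PR1 (1.77 and 28.5 TPM) and BGL2, also called PR2 (7.35 and 93.8 TPM), whereas PR5 had 22.3 and 16.3 TPM, within 2-fold. The other lower genes belong with ALD1 to the pipecolic acid route. FMO1, which hydroxylates pipecolic acid, had 7 counts in replicate 1 and 18 in replicate 2. AT5G52810, a reductase gene of pipecolic acid synthesis, had 23.5 and 57.2 TPM, and its span overlaps another gene. DIR1, a lipid transfer protein that works with AZI1, had 60.6 and 40.1 TPM, and MPK3 had 156 and 178 TPM.

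Other gene groups differed between the libraries beside the row. Of all genes, 9.99% were at least 2-fold higher in replicate 1 and 9.51% at least 2-fold lower. Of 12 root markers 5 (41.7%) were at least 2-fold higher in replicate 1 and 0 lower, with a median of 0.79. The summed level of these markers was 173 TPM in replicate 1 and 94.5 TPM in replicate 2. The root hair expansin EXPA7 had 17.7 and 4.20 TPM and the auxin carrier gene EIR1, also called PIN2, 19.3 and 6.95 TPM, while the endodermal regulator SCR had 58.3 and 48.1 TPM. In whole seedlings, fewer cells of a type and less RNA per cell cannot be told apart. All 10 cold and dehydration genes were at least 2-fold lower in replicate 1, with a median of -5.05, among them COR15A at 45.2 and 1457 TPM and RAB18 at 2.13 and 1364 TPM. The part of these groups in the differences of AZI1 and EARLI1 was not tested. Photosynthetic shoot genes (7 of 7) and reference genes (10 of 10) stayed within 2-fold, and of 5 epidermal genes 4 did.

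By level in both libraries, the genes most like each of 4 members were sought among 17345 genes with a mean count of at least 50, by Euclidean distance on log2(TPM + 1) over the 2 libraries, which is a weak measure over so few samples. For AZI1 they were the glutathione transferase gene GSTF14 (101 TPM in replicate 1 and 8.55 TPM in replicate 2, distance 0.653), the chloroplast gene ATCG00730 (54.7 and 7.01 TPM, distance 0.836) and CYP82C4, a cytochrome P450 gene (52.0 and 6.67 TPM, distance 0.877). For EARLI1 they were the chloroplast gene ATCG00340 (59.1 and 8.97 TPM), the lectin gene AT1G52070 (57.4 and 9.12 TPM) and AT3G25190 of the vacuolar iron transporter family (56.7 and 9.87 TPM), at distances of 0.0443, 0.0642 and 0.169. AZI1 had no gene as near as those of EARLI1. The nearest to AT4G12510 was RPL10B (35.8 and 17.5 TPM, distance 0.00453), followed by LAX3 and AT1G28395, and to AT4G12520 it was SDF2 (64.6 and 51.2 TPM, distance 0.0113), followed by HO2 and NPC6.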

How the data were processed

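Reads were processed by the authors with Picard, TopHat, Trimmomatic and FastQC on TAIR10, as listed without roles or versions in the submitters' processing notes. Per the labels' protocols, stranded and unstranded TruSeq kits and sequencing at 2 centres were used; which applies to which library is not stated, so that kit and centre cannot be told apart from replicate. Raw counts were deposited without normalization, per the file headers. FPKM and TPM were deposited by the authors, and their TPM equals their FPKM rescaled. Start positions in the files were raised by 1, since 44.7% of matched genes then shared the start of TAIR10.1 and 0.408% did without. Scaling for library size was by TMM (edgeR 4.0.16 in R 4.3.3; factors 1.03 and 0.968), on genes whose counts summed to 20 or more. Log2 differences (replicate 1 minus replicate 2) used a prior count of 2. Folds used none and carry Clopper-Pearson 95% intervals. These were run on simulated Poisson counts, which hold counting error only, so that this checks the computation and not the spread between real libraries. Windows, identities (Biopython 1.88) and motifs were read from RefSeq TAIR10.1, whose exon lengths gave a second TPM. Depth was 20249142 and 12410991 counts; a count of 0 allows 3, or 0.148 and 0.242 CPM. Named were the 6 genes, ARP6, 5 genes on each side, from each list the largest differences past 2-fold and highest levels, and the 3 nearest genes; others were named after their values were seen, as were the motifs. Members and lists were chosen with earlier results of these data known. DESeq2 1.42.0 size factors were among the alternatives.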

Additional observations from a re-analysis of the deposited data

How the results depend on the processing

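With 7 alternatives to the scaling, count minimum, prior count and unit, the log2 difference ranged from 3.93 to 4.09 for AZI1, 2.61 to 2.73 for EARLI1, 0.96 to 1.06 for AT4G12510, 0.30 to 0.39 for AT4G12520 and 0.23 to 0.32 for AT4G12490, all higher in replicate 1. The number of genes of the row at least 2-fold higher was 2, and 3 with total counts (AT4G12510) or no minimum (AT4G12500). TPM computed from the counts gave a sum of 114 in place of 169.6 TPM and 32.8 in place of 57.9 TPM for AT4G12520; replicate 1 alone gave a sum of 254.8 TPM and an AZI1 share of 36.2%, replicate 2 alone 84.4 TPM and 6.08%. A pseudocount of 0.1 kept 12 of 12 nearest genes. Of 146 alternative values, 139 stayed within the counting interval, the SD between libraries or 1.5 times the count, 7 moved and 0 changed sign past 2-fold. The 139 include the levels and shares from 1 library alone. These always lie within the SD of 2 libraries, so that their place in this count says nothing on stability. No paired analysis was possible because the labels give 1 group. Depth limits AT4G12490 and AT4G12500, for which a 2-fold higher count in replicate 1 can be neither seen nor set aside. A 2-fold lower count lies outside their counting intervals, which start at 0.563 and 0.616 and cover counting error only.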

Other observations

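Outside the row, the bifunctional inhibitor and lipid transfer superfamily genes with the largest differences between the libraries were lower in replicate 1. AZI1 and EARLI1, which this list leaves out, were higher. AT2G37870 had 2.84 TPM in replicate 1 and 435 TPM in replicate 2, AT4G33550 27.7 and 579 TPM, and AT3G53980 57.4 and 595 TPM. On the log2 scale the 4.00 of AZI1 was larger in size than the -3.45 of AT3G53980. The GPI-anchored lipid transfer gene LTPG1 had 355 and 482 TPM.

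For AZI1, EARLI1, AT4G12510 and AT4G12520, counts divided by library depth stood in nearly the same ratio to FPKM in both libraries. AT4G12500 had 1 count beside 0 FPKM in replicate 2. The length implied by counts, FPKM and depth was 475 and 498.5 bases for AZI1, 545 and 565 for EARLI1, 305 and 309 for AT4G12510 and 358 and 364 for AT4G12520, against spans of 799, 833, 568 and 683 bases. The authors' TPM was 1.30 and 1.28 times the computed TPM for AZI1, and 1.90 and 1.92 times for AT4G12510.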
